A study of Homo sapiens with 12 samples.

Results

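The clustered protocadherins are neighbouring genes on chromosome 5q31 that encode cell adhesion proteins of the cadherin superfamily. The 53 members were taken by symbol from the protein-coding genes of the annotation, and comprised 15 alpha, 16 beta and 22 gamma genes out of 20090 protein-coding genes in all. They lie on the plus strand within chr5:140165721-140892544 (hg19), a span of 726.8 kb. Peak pairs were then counted within 1 kb of the annotated transcription start site (TSS) of each member and over the whole span.

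Occupancy was measured by ChIP-exo, in which an exonuclease trims immunoprecipitated DNA to the crosslinking point, so that each bound site gives a pair of borders, listed as a peak pair. All libraries came from DCIS.COM, an established breast cancer cell line that models ductal carcinoma in situ. Control cells (NS, named a non-scrambled control in the labels) gave 3 libraries with an antibody against STAT3 phosphorylated on a serine of its transactivation domain (pSTAT3) and 3 libraries with an antibody against BCL9, a transcriptional coactivator. BCL9 knockdown cells (BCL9 KD) gave 2 libraries with each antibody, and control cells gave 1 library against CTCF, which served as the positive control. The construct, the number of clones and the remaining BCL9 protein were not used here, and peak lists cannot check the knockdown. The IgG library was not analysed here, so no background of the antibody step is set beside the values.

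Each alpha or gamma gene has its own promoter and a large first exon that is spliced to constant exons shared by its cluster, whereas each beta gene has a single exon. Neurons use few of these promoters at a time, and the choice is known to involve CTCF, a zinc finger protein that stops the cohesin ring according to the orientation of its site, so that a promoter and a distant enhancer can be brought together. In epithelial cells the genes are less studied. The C-type genes (PCDHAC1, PCDHAC2, PCDHGC3, PCDHGC4 and PCDHGC5) differ from the rest in sequence and are used more evenly across neurons.

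The lists held 24728 to 493174 peak pairs, and a longer list covers more TSSs, so every count of members is set beside the share of all protein-coding genes in the same library. In every list the deposited signal was a whole multiple of a step of that library, and the multiple is called a number of tags. The step ran from 0.37 to 1.07, and tags were not scaled between libraries. The lowest listed value was 4, 6 and 4 tags for control pSTAT3 and 5, 9 and 6 for control BCL9. It was 4 and 3 for knockdown pSTAT3, 7 and 5 for knockdown BCL9, and 3 for CTCF. A value of 0 tags means that no pair was listed. Total reads per library are not known from the lists, so a library without a peak pair at a gene is not evidence of no binding there. The identity of the cells was checked by peak pairs near marker genes, since the lists hold no expression. Basal mammary epithelial markers had a peak pair in a median of 7.5 of the 10 pSTAT3 and BCL9 libraries (8 genes, of which KRT5, KRT17 and LAMB3 had one in 10 of 10, but ITGA6 in 4 and TP63 in 1), against a median of 0 for 8 neuronal markers, of which SYT1 and MAP2 had one in 4, a median of 0 for 5 blood and endothelial markers, and 2 over all genes. The sample titles number the replicates but do not state whether each was a separate culture. The p-values measure the spread between these libraries of 1 cell line.

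CTCF lay at the starts of most clustered protocadherins. The strings below are set beside the CTCF pairs further on, where the clusters differ. They were read from the GRCh37 sequence on the plus strand, which is the strand of every member. Each cluster shared its own 8-letter string at the start, shown in capitals with 11 bases on either side. In the alpha cluster the string ATGTCGCT was found between 250 bp upstream and 50 bp downstream of the TSS of 10 of 15 genes.
PCDHA4, chr5:140186565-140186594: ggagccacatgATGTCGCTctttaccacaa
PCDHA10, chr5:140235427-140235456: aaagccaccggATGTCGCTgtcgtccacaa
PCDHA12, chr5:140254830-140254859: tcagtcacatgATGTCGCTctacactcaga
In the beta cluster the string GTGGCGCT was found at 14 of 16 genes.
PCDHB2, chr5:140474130-140474159: agagacgcgggGTGGCGCTgcagccttaga
PCDHB16, chr5:140561886-140561915: gagaacgcgtgGTGGCGCTgcaggttaaga
PCDHB9, chr5:140566649-140566678: gaagccacaagGTGGCGCTgcagactgaag
In the gamma cluster the string GCCGCTGT was found at 11 of 22 genes.
PCDHGA1, chr5:140709973-140710002: ggactgtgggcGCCGCTGTtcactaatctg
PCDHGB1, chr5:140729595-140729624: aacctctgggcGCCGCTGTcgaccaaaagg
PCDHGC3, chr5:140855450-140855479: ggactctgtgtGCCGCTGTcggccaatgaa

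All 3 strings hold the letters CGCT, and no string occurred in the same window of a member of the other clusters. Over all protein-coding genes the same window held ATGTCGCT on the gene's strand in 0.204% of genes, GTGGCGCT in 0.806% and GCCGCTGT in 0.946%. Each is the most frequent string of that length at the starts of its own cluster, tied with 1 other string in the alpha and in the beta cluster, where the one held by fewer genes overall was taken. They were found after the sequences were seen, so their frequency in the members is a description. The genes of a cluster arose by duplication and are not independent of each other. Counted from the first base of the start codon, the first letter of the string lay at -222 to -172 bp in the alpha genes, at -264 to -231 bp in the beta genes and at -268 to -208 bp in the gamma genes.

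A longer string was found inside the first exon of alpha genes and away from the starts. It is the core of the usual CTCF motif, written CCA, any 2 bases, AG, any 2 bases and GGC, and it was searched on both strands. The core and the beta string are not separate sequences. At PCDHB9 the end of the core is also the beginning of GTGGCGCT, and the DIAPH1 core printed below runs into the same letters. At 4 alpha genes the core lay in the coding exon on the plus strand, in capitals here with 9 bases on either side.
PCDHA4, chr5:140187220-140187249, plus strand: tctcggtttCCACTAGAGGGCgcctcggat
PCDHA9, chr5:140228528-140228557, plus strand: tctcggtttCCACTAGAGGGCgcgtccgat
PCDHA10, chr5:140236078-140236107, plus strand: tctcgatttCCACTAGAAGGCgcatctgat
PCDHA13, chr5:140262301-140262330, plus strand: actcgatttCCACTAGATGGCgcatccgat
These began 456, 456, 453 and 456 bp after the first base of the start codon in PCDHA4, PCDHA9, PCDHA10 and PCDHA13. In CTCF regions of at least 15 tags away from the starts the same core was found on the minus strand, at a pair of CTCF regions between the alpha constant exons and PCDHB1, at the shared 3′ untranslated region of the gamma genes, and beyond the cluster in an intron of DIAPH1, the next gene downstream. Weaker regions of 4 to 6 tags held it on either strand, on the plus strand in introns of TAF7 and DIAPH1 and on the minus strand upstream of PCDHB2. The stronger ones are printed on the strand that holds the core.
Alpha to PCDHB1, upstream region, chr5:140419939-140419968, minus strand: gatctttaaCCAGCAGAGGGCgagtcgact
Alpha to PCDHB1, downstream region, chr5:140420948-140420977, minus strand: cctcatctgCCACCAGGTGGCaggtggatc
Gamma 3′ untranslated region, chr5:140892061-140892090, minus strand: aggctatggCCACTAGGGGGCgcactgggg
DIAPH1 intron, chr5:140904452-140904481, minus strand: gatgctcagCCAGCAGGTGGCgctgggagc

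CTCF was listed within 1 kb of the TSS of 43 of 53 members, or 81.1% (exact Clopper-Pearson 95% interval 68.0 to 90.6%, which covers counting error only), against 40.9% of all protein-coding genes. The alpha cluster had a CTCF peak pair at 14 of 15 genes, the beta cluster at 15 of 16 and the gamma cluster at 14 of 22, but only 2 of the 5 C-type genes had one. The CTCF values come from 1 library and have no replicate check. The strongest CTCF peak pair held a median of 22 tags over the 43 members, against 6 over the 8208 genes with a pair. A pair of at least 20 tags was found at 22 members (41.5%) and at 10.9% of all genes, and one of at least 40 tags at 12 members (22.6%) and at 6.61% of all genes. The count depends on weak pairs, since 27 members had a pair of at least 9 tags (all genes 16.9%) and 7 had one among the 24728 strongest of the list (all genes 4.08%).

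CTCF levels differed widely between neighbouring genes. The highest in the beta cluster were 148 tags at PCDHB9, which ranks in the top 0.302% of the CTCF list, 107 at PCDHB16, 93 at PCDHB2, 56 at PCDHB14 and 42 at PCDHB10. PCDHB3, PCDHB6 and PCDHB15 had 5 tags each, and PCDHB1 had no CTCF pair. In the gamma cluster PCDHGB2 had 112 tags, PCDHGB1 66, PCDHGB7 46, PCDHGA4 38 and PCDHGA1 28. From PCDHGA5 to PCDHGB6, consecutive genes in the middle of the gamma cluster, no gene had a pair above 6 tags, and PCDHGA5, PCDHGB3, PCDHGA6, PCDHGA7, PCDHGA8 and PCDHGA9 had none. In the alpha cluster PCDHAC1 led with 68 tags, followed by PCDHA12 with 61, PCDHA4 with 44, PCDHA10 with 40 and PCDHA6 with 36. PCDHAC2, PCDHGC4 and PCDHGC5, which are C-type genes, had no CTCF pair, and PCDHGC3 had 24 tags.

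Some members share sequence with their neighbours. Of the 32-base stretches within 1 kb of a TSS, those found more than once in the genome reached 43.6% (PCDHB8 and PCDHB13, 7 and 12 CTCF tags). Over all clusters together, members with a CTCF pair had a median of 3.5% of such repeated stretches and members without 1.04%. The middle of the gamma cluster went the other way. From PCDHGA5 to PCDHGB6, every gene except PCDHGA5 and PCDHGB3 was more repeated than the median gamma gene. So was PCDHGB7, which had a strong CTCF pair. Whether repeated sequence lowers the number of listed pairs was not tested. The annotated start of PCDHGA8 lies 2657 bp from its start codon and that of PCDHGB2 142 bp, so a fixed distance from the TSS does not reach the same part of every gene. Counting from every annotated transcript start also gave 43 members, while the share of all genes rose to 50.8%.

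**Figure D1:**
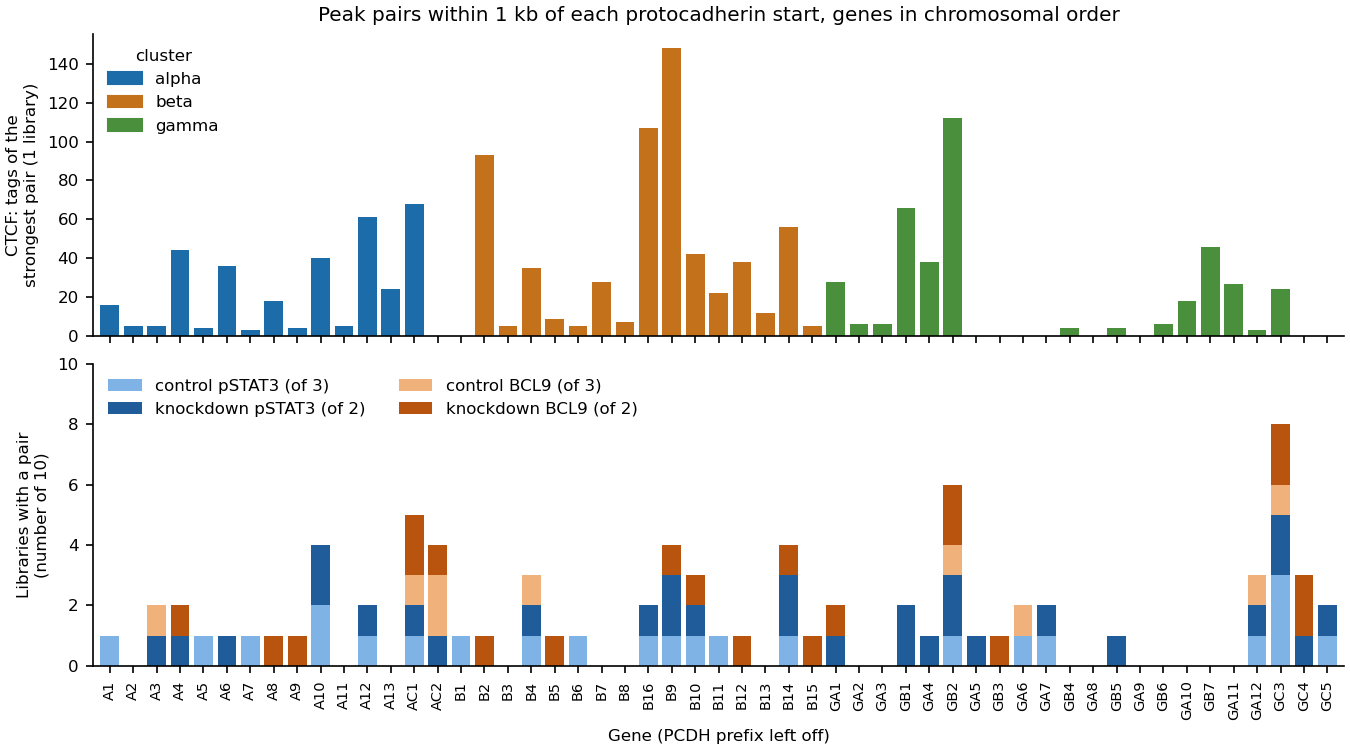
The 53 members in chromosomal order along the x axis, with the tags of the strongest CTCF peak pair within 1 kb of the TSS (upper panel, bars coloured by cluster, 1 library) and the number of the 10 pSTAT3 and BCL9 libraries with a peak pair there (lower panel, stacked by group). PCDHB9 stands highest for CTCF with 148 tags, the middle of the gamma cluster is nearly empty, and PCDHGC3 stands highest in the lower panel with 8 of 10 libraries.

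The strongest CTCF pair lay within 200 bp of the TSS at 31 of the 43 members, with a median position of -47 bp. At 22 of the 35 members that hold their cluster's string, the midpoint of this pair lay within 50 bp of the centre of the string: 8 of 10 alpha, 10 of 14 beta and 4 of 11 gamma genes. The strongest CTCF pair had a median of 17 tags in the 10 alpha genes with the string and 5 in the 5 without, and of 31.5 in the 14 beta genes with it and 2.5 in the 2 without. Genes without a pair counted as 0 tags in these medians. In the gamma cluster they lay near the lowest listed value of 3 tags, at 4 in the 11 genes with the string and 6 in the 11 without. A CTCF pair was listed at 8 gamma genes with the string and 6 without, and one of at least 20 tags at 3 and 4, so no order is settled there. PCDHGA7, PCDHGA9 and PCDHGC4 hold GCCGCTGT and had no CTCF pair. High levels also occurred without it, since PCDHGB2 (112 tags) and PCDHAC1 (68 tags) lack their cluster's string.

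Alpha genes carried CTCF at a second place. PCDHA4, PCDHA6, PCDHA10 and PCDHA12 had a region at the TSS and another in the coding exon, whose strongest midpoints lay at 607, 570, 662 and 597 bp with 23, 28, 23 and 52 tags. PCDHA13 had its region of at least 15 tags only in the coding exon, at 607 bp with 24 tags. PCDHA6 and PCDHA12 lack the usual core in that region. No second region with a pair of at least 15 tags was found within 1 kb of the TSS of a beta or gamma gene, and PCDHGC3 had one farther into its coding exon, at 2545 bp with 38 tags.

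**Figure D2:**
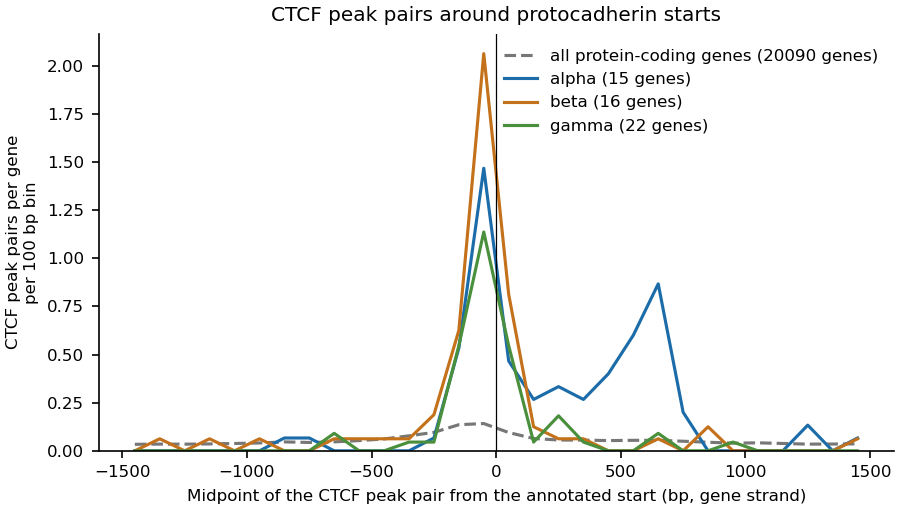
CTCF peak pairs per gene in 100 bp bins (y axis) by distance of the midpoint from the annotated TSS in bp (x axis), for the alpha, beta and gamma genes (solid lines) and all 20090 protein-coding genes (dashed line). All 3 clusters peak just upstream of the start, and only the alpha line has a further rise between 500 and 700 bp.

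A full match of the usual core was rare at the starts themselves, and partial matches were not counted. Within 250 bp of the TSS it occurred at 2 of 53 members (3.77%), against 4.14% of all protein-coding genes. It was present in 6.94% (95% interval 4.40 to 10.3%) of the 317 CTCF windows of 100 bp in the cluster and in 7.74% of the CTCF windows elsewhere. Of the merged CTCF regions of at least 15 tags, 28 lay within 1 kb of a member TSS, and 4 of these held the core, all on the plus strand (PCDHA4, PCDHA10, PCDHA13 and PCDHB9). A further 7 such regions lay farther from the starts, and 3 held the core, all on the minus strand. With 7 oriented regions in all, this is a description. The REST string, a long motif of a repressor of neuronal genes, was found at 0 of 53 member starts and at 0.0448% of all genes. The AP-1 string TGANTCA, searched like the others on both strands, occurred at 4 of 53 members (7.55%) against 9.12% of all genes. The STAT3 string TTCNNNGAA occurred at 12 of 53 member starts (22.6%) and at 10.7% of all genes. A match of letters is not a bound site.

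pSTAT3 and BCL9 were seldom listed at the member starts. In control cells, pSTAT3 peak pairs lay within 1 kb of 4, 5 and 14 members in replicates 1 to 3, against 18.9%, 14.2% and 44.4% of all genes, where the members' shares were 7.55%, 9.43% and 26.4%. In knockdown cells pSTAT3 lay at 9 and 20 members (17.0% and 37.7%), against 45.2% and 48.9% of all genes. BCL9 lay at 2, 3 and 4 members in control cells (3.77%, 5.66% and 7.55%), against 7.5%, 5.58% and 25.6% of all genes, and at 9 and 12 members in knockdown cells (17.0% and 22.6%), against 20.6% and 43.1%. The members' share was thus below that of all genes in 9 of 10 libraries, and equal to it within 0.0805 points in control BCL9 replicate 2.

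No change of this difference with the knockdown could be shown. For pSTAT3 the control libraries differed by -11.4 ± 6.65 percentage points (SD, n = 3) and the knockdown libraries by -19.7 ± 12.1 (n = 2), a change of -8.34 points (exact permutation test, two-sided p = 0.5, adjusted p = 0.667 by Benjamini-Hochberg over 8 tests). For BCL9 the control libraries differed by -7.25 ± 9.58 points (n = 3) and the knockdown libraries by -12.0 ± 11.9 (n = 2), a change of -4.78 points (exact permutation p = 0.6, adjusted p = 0.686). With 10 assignments the smallest p this design allows is 0.1, so it cannot pass 0.05. Over both conditions pSTAT3 (-14.7 ± 8.91, n = 5) differed from BCL9 (-9.16 ± 9.40, n = 5) by -5.55 points (exact permutation p = 0.357, adjusted p = 0.571). The values overlap between the groups in each comparison. Among the 24728 strongest pairs of each list the order of the antibodies turned, to 2.58 points (exact permutation p = 0.0476, not adjusted).

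**Figure D3:**
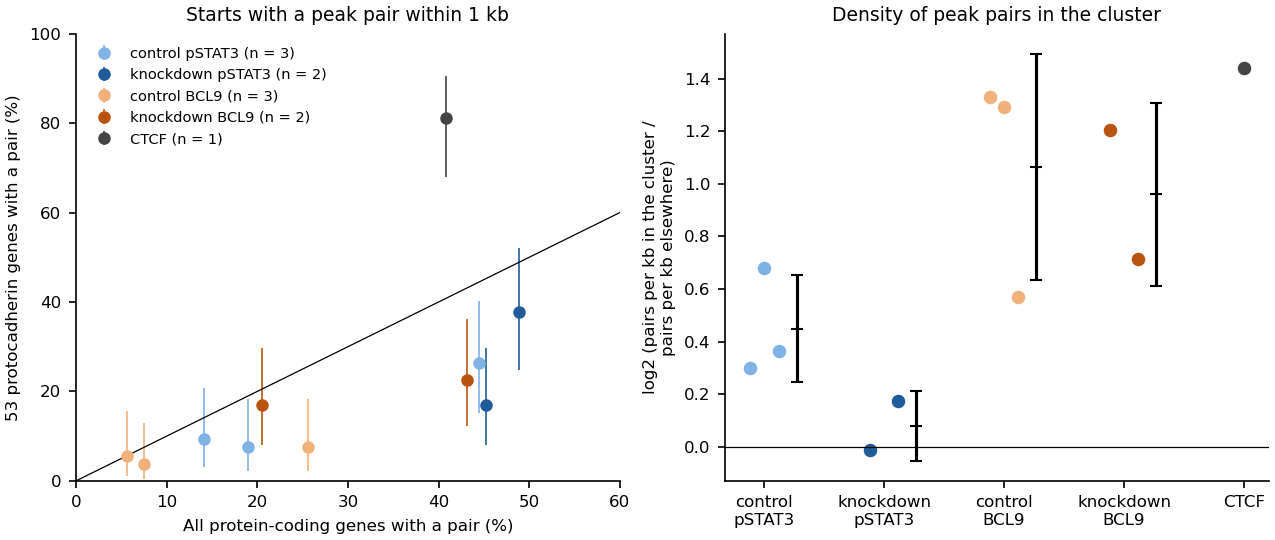
Left, the percentage of the 53 members with a peak pair within 1 kb of the TSS (y axis, with exact 95% binomial intervals) against that of all protein-coding genes (x axis), 1 point per library, with the line of equality. Right, log2 of the peak pairs per kb in the cluster over those elsewhere, 1 point per library, with bars for mean and SD; CTCF lies far above the line on the left at 81.1%, and all BCL9 points lie above 0 on the right.

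Few members had a repeatable pSTAT3 or BCL9 peak pair. At least 2 of 3 control libraries had one at 2 members for pSTAT3 (20.3% of all genes) and at 1 member for BCL9 (7.1% of all genes). At least 1 of 3 control libraries had one at 20 members for pSTAT3 (51.0% of all genes) and at 8 for BCL9 (29.6% of all genes). A peak pair in any of the 10 libraries was found at 37 members (69.8%), against 74.9% of all genes. Over the 10 libraries, 16 members (30.2%) had a peak pair in none and 17 (32.1%) in 1, against 25.1% and 16.2% of all genes, with a median of 1, against 2 over all genes. A CTCF pair with no pSTAT3 or BCL9 pair in any library was found at 14 members (26.4%), against 3.72% of all genes.

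PCDHGC3, a C-type gene at the 3′ end of the gamma cluster, was the member listed most often. Its strongest pSTAT3 pair within 1 kb of the TSS held 5, 8 and 5 tags in the control libraries and 7 and 9 in the knockdown libraries. BCL9 held 0, 0 and 9 tags in control cells and 22 and 12 in knockdown cells. Both knockdown values lie above the listed control value and above the lowest values that the other control lists hold, in tags not scaled between libraries. These pairs were spread from -762 to 802 bp of the TSS, and that of 22 tags lay at -29 bp, beside the CTCF pair at -54 bp and the string printed above.

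PCDHGB2 had a peak pair in 6 libraries. The knockdown libraries had 7 and 7 tags for pSTAT3 and 10 and 6 for BCL9, all between 74 and 150 bp downstream of the TSS, beside its CTCF region, whose strongest pair of 112 tags lay at -19 bp. In control cells it was listed in pSTAT3 replicate 1, with 4 tags at 919 bp, and in BCL9 replicate 2, with 10 tags at 393 bp, so no control pair lay at the CTCF region. PCDHAC1 was listed in 5 libraries, with 0, 0 and 5 tags for control pSTAT3, 0 and 6 for knockdown pSTAT3, 5, 0 and 0 for control BCL9, and 7 and 7 for knockdown BCL9. PCDHAC2, which has no CTCF pair, had 0, 9 and 8 tags for BCL9 in control cells, 9 and 0 in knockdown cells, and 5 tags in knockdown pSTAT3 replicate 2. PCDHGC4 was listed in both knockdown BCL9 libraries, with 10 and 5 tags, in no control BCL9 library, and for pSTAT3 in knockdown replicate 1, with 5 tags. PCDHGC5 was listed only for pSTAT3, with 5 tags in control replicate 3 and in knockdown replicate 2.

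PCDHA10 had control pSTAT3 values of 0, 6 and 4 tags and knockdown values of 6 and 7, and no BCL9 pair. PCDHB9 (0, 0 and 7 tags in control, 4 and 4 in knockdown cells) and PCDHB14 (0, 0 and 12, then 4 and 5) were listed for pSTAT3 in both knockdown libraries. PCDHGB1 was listed for pSTAT3 only after knockdown, with 8 and 4 tags.
A peak pair in both knockdown libraries was found at 6 members for pSTAT3 (33.3% of all genes) and at 4 for BCL9 (15.9% of all genes). In both knockdown and no control library there was 1 member for pSTAT3, PCDHGB1, against 5.22% of all genes, and 1 for BCL9, PCDHGC4, against 5.1%. The reverse, in at least 2 control and no knockdown library, was found at 0 members for either antibody, against 1.04% and 0.418% of all genes. The 4 tags of PCDHGB1 lie under the lowest listed value of control pSTAT3 replicate 2 (6 tags). The 5 tags of PCDHGC4 lie under those of control BCL9 replicates 2 (9 tags) and 3 (6 tags). No test was made per gene. Both knockdown pSTAT3 lists are longer than every control pSTAT3 list, and the knockdown BCL9 lists are longer than 2 of the 3 control BCL9 lists in replicate 1 and than all 3 in replicate 2. The part of list length in these counts was not tested.

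Over the whole span the cluster was not empty. Pairs in the cluster numbered 37, 40 and 123 for control pSTAT3, 105 and 142 for knockdown pSTAT3, 18, 15 and 56 for control BCL9, 56 and 141 for knockdown BCL9, and 317 for CTCF. The density relative to the rest of the genome was 1.24 ± 0.222 for pSTAT3 and 2.04 ± 0.454 for BCL9 (SD, n = 5 each), and 2.71 for CTCF. On the log2 scale the mean of the 10 libraries was 0.66, above 0 in 9 of 10 (exact sign-flip permutation, two-sided p = 0.00391, adjusted p = 0.0313). It was 0.30 ± 0.26 for pSTAT3 and 1.02 ± 0.35 for BCL9, a difference of -0.72 (exact permutation p = 0.0159, adjusted p = 0.0423, n = 5 each). The groups overlap, since control pSTAT3 replicate 2 reached 0.68 and control BCL9 replicate 3 was at 0.57. Among the 24728 strongest pairs of each list the mean of the 10 fell to 0.32 (exact permutation p = 0.328). Control pSTAT3 replicate 1 and control BCL9 replicate 1 were taken to come from a single sequencing run each, by the form of their deposited names only. The sample titles do not state sequencing runs. Without these 2 libraries the difference between antibodies was -0.64 (exact permutation p = 0.0571).

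No shift of the density with the knockdown could be shown either. For pSTAT3 the log2 density averaged 0.45 ± 0.20 without (n = 3) and 0.08 ± 0.13 with the knockdown (n = 2), a change of -0.37 (exact permutation p = 0.2, adjusted p = 0.4), and no knockdown value reached a control value, but among the 24728 strongest pairs of each list the change turned to 0.31 (exact permutation p = 1.0). For BCL9 it was 1.06 ± 0.43 (n = 3) and 0.96 ± 0.35 (n = 2), a change of -0.10 (exact permutation p = 0.8, adjusted p = 0.8). The change for pSTAT3 minus the change for BCL9 was -0.27 (exact permutation within antibodies, 100 assignments, p = 0.53). Such p-values do not show that the conditions are alike.

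The density was not particular to the cluster. In the 500 kb on each side, pSTAT3 and BCL9 lists had 4.1 to 50.4 pairs per 100 kb, more than the 2.06 to 19.5 within it in each of the 10 libraries. CTCF had 45.8 pairs per 100 kb in these flanks and 43.6 in the cluster, against 16.1 over the rest of the genome. CTCF pairs were near the starts, with 67.2% within 1 kb of a member TSS, whereas 8.93 to 25.0% of the pSTAT3 and BCL9 pairs were.

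BCL9 windows in the cluster overlapped CTCF more often than BCL9 windows elsewhere, but CTCF windows were also denser in the cluster. Whether the BCL9 excess goes beyond that density was not settled. Of the BCL9 windows in the cluster 26.0% ± 7.19 shared at least 1 bp with a CTCF window, against 11.2% ± 2.50 elsewhere (SD, n = 5), and of the pSTAT3 windows 11.5% ± 7.28 against 8.87% ± 1.45 (n = 5). Over the 10 libraries the excess was 8.71 points, above 0 in 8 of 10 (exact sign-flip permutation, two-sided p = 0.0137, adjusted p = 0.0423), and both exceptions were control pSTAT3 libraries (2.5% against 8.53% and 7.32% against 8.14%). This excess does not allow for the density of CTCF windows, since 4.59% of the positions of the cluster and 1.93% of those elsewhere lie close enough to a CTCF midpoint for a window to overlap it. Divided by these shares of positions, the overlap was 5.65 ± 1.56 times in the cluster against 5.81 ± 1.29 times elsewhere for BCL9 and 2.51 ± 1.58 against 4.60 ± 0.751 times for pSTAT3 (SD, n = 5 each). The difference of the ratios, a comparison added after the values were seen, was -1.12 over the 10 libraries and below 0 in 8 of 10 (exact sign-flip permutation, two-sided p = 0.0332, not adjusted). The positions elsewhere include unsequenced bases of the assembly, which the density above leaves out, so the ratios elsewhere are too high. The difference, its p-value and the counts of libraries hold only for this count of positions. Ratios without the unsequenced bases were not computed, so no conclusion is drawn from this test. The ratio was higher in the cluster in 2 of 5 BCL9 and 0 of 5 pSTAT3 libraries, and the small gap for BCL9 has no settled direction. The numbers are small, from 1 window in control pSTAT3 replicate 2 to 23 in knockdown BCL9 replicate 2. Among the strongest 24728 pairs the excess was 3.86 points (exact permutation p = 0.25), and with a minimum of 9 tags it was 3.77 points (exact permutation p = 0.225). The difference in excess between the antibodies was not tested.

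**Figure D4:**
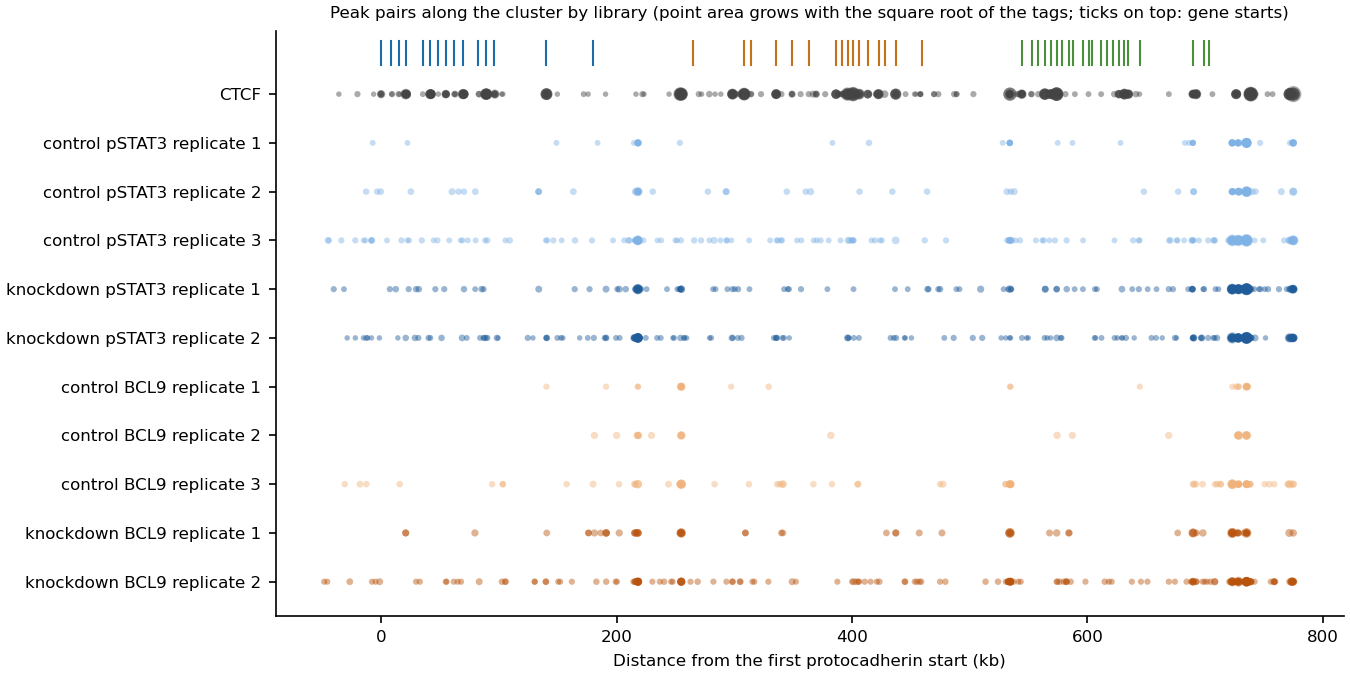
Peak pairs of each library along the cluster and 50 kb on either side, by distance from the first protocadherin TSS in kb (x axis), with 1 row per library and point area growing with the square root of the tags; ticks mark the starts of alpha (blue), beta (orange) and gamma (green) genes. CTCF points sit under the ticks, while the columns shared by pSTAT3 and BCL9 libraries lie between and beyond the gene groups.

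The regions shared by most libraries lay mainly outside the member starts, with that at PCDHGC3 as the exception among those of 6 or more libraries. Merging the windows of the 10 libraries gave 432 regions in the cluster, of which 379 held a pair from 1 library only. A region in the intron before the last constant exon of the alpha genes, chr5:140383598-140384279, was found in 10 of 10 libraries. Its tags summed to 48, 75 and 151 for control pSTAT3, 137 and 220 for knockdown pSTAT3, 10, 28 and 32 for control BCL9, and 30 and 106 for knockdown BCL9. pSTAT3 tags overlapped between the conditions, and CTCF had none. The region held a pair of AP-1 strings, the motif of FOS and JUN factors, printed here in capitals on the plus strand because, of the strings searched, it is the one most often found under pSTAT3 in these lists.
Alpha intron, first string, chr5:140383833-140383861: ttttactggaaTGAGTCAcagtctacatg
Alpha intron, second string, chr5:140384010-140384038: ggagtttaggcTGAGTCAtatagaaccag

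A region in the corresponding gamma intron, before the last constant exon, chr5:140888475-140889044, was found in 9 of 10 libraries. Its tags were 57, 29 and 196 for control pSTAT3, 237 and 146 for knockdown pSTAT3, 5, 0 and 121 for control BCL9, and 113 and 92 for knockdown BCL9, so replicate 3 stood above the other control libraries of either antibody. It too had no CTCF pair and held 1 AP-1 string.
Gamma intron, chr5:140888975-140889003: gcgagccccaaTGAGTCAaactcttgttt
In all, the AP-1 string was rarer in the cluster than elsewhere for pSTAT3, in 4.93 to 8.11% of its cluster windows against 14.3 to 24.6% of the others.

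A region between the alpha genes and PCDHB1, chr5:140420518-140420844, was mostly BCL9. Its BCL9 tags were 68, 49 and 92 in control cells and 75 and 68 in knockdown cells, and its pSTAT3 tags were 0, 0 and 0 in control cells and 20 and 0 in knockdown cells. All 5 BCL9 values lie above all 5 pSTAT3 values, although the pSTAT3 lists are the longer ones in each condition on average. The region lies between the minus-strand CTCF cores printed above. CTCF had 3 tags with a midpoint inside it, while the CTCF regions on either side, the downstream of which overlaps its edge, reached 123 and 93 tags in their strongest pair. The stretch downstream of the alpha constant exons is known to hold an enhancer of the alpha genes. The region was chosen after its values were seen, and no test was made.

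TAF7, a subunit of the general transcription factor TFIID, lies between the beta and gamma genes without being a protocadherin, and had a pair within 1 kb of its TSS in 9 of 10 libraries. The region in its first exon, chr5:140699435-140699965, held 28, 0 and 4 tags for control pSTAT3, 12 and 3 for knockdown pSTAT3, 5, 0 and 32 for control BCL9, and 72 and 38 for knockdown BCL9, with 267 CTCF tags. The region over its TSS, chr5:140700271-140700675, was also found in 8 of 10 libraries, with 0, 6 and 17 tags for control pSTAT3, 4 and 3 for knockdown pSTAT3, 5, 0 and 40 for control BCL9, and 8 and 48 for knockdown BCL9, and it held 1 STAT3 string. SLC25A2, the other gene there, had none in any library. At PCDHGC3, chr5:140855223-140855605 was found in 7 of 10 libraries, with 15, 0 and 5 tags for control pSTAT3, 5 and 3 for knockdown pSTAT3, 0, 0 and 6 for control BCL9, and 49 and 17 for knockdown BCL9. At PCDHGB2, chr5:140739524-140739760 was found in all 4 knockdown libraries and no control library, with 12 and 7 tags for pSTAT3 and 10 and 6 for BCL9. The pattern was not particular to it, since chr5:140380995-140381333, in an alpha intron, showed it too (4 and 30 tags for pSTAT3, 17 and 6 for BCL9). Most knockdown lists are longer than the control lists. The share of all regions with this pattern was not counted, and no test was made.

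**Figure D5:**
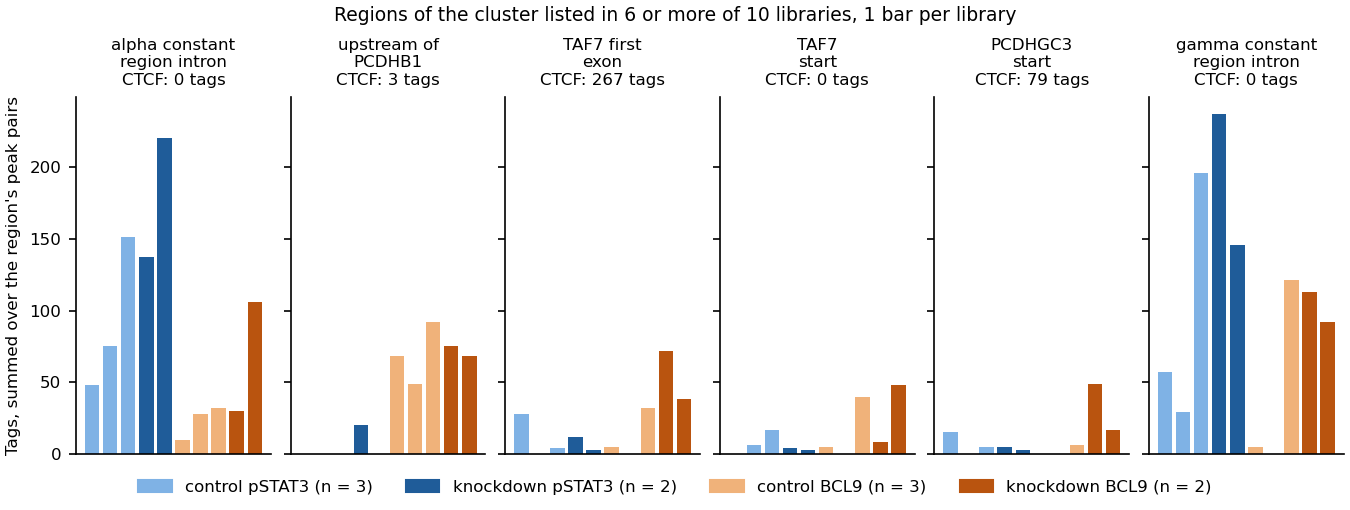
Tags summed over the peak pairs of each region (y axis) in the 6 regions of the cluster found in 6 or more of 10 libraries, 1 bar per library, coloured by antibody and condition, with the tags of CTCF pairs whose midpoint lies inside the region above each panel. The alpha and gamma introns have the most pSTAT3 tags and no CTCF, and the region upstream of PCDHB1 has 49 or more BCL9 tags in each of 5 libraries and pSTAT3 tags in 1.

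By their medians, genes around the cluster and genes for proteins that act on it were listed in more libraries than the members (median 1) and all genes (median 2). Single genes did not all follow, since ZMAT2 and RNF14 beside the cluster and the regulators DNMT3B and WIZ were listed in 1 library each. The 20 flanking genes had a pair in a median of 5 of 10 libraries, and 17 of 20 had CTCF. Among 11 CTCF and cohesin genes the median was 4 libraries, with CTCF itself listed in 4 and RAD21, a cohesin subunit, in 5. Among 6 known regulators of the cluster it was 3, with SMCHD1, which takes part in silencing the cluster, in 4 and REST, a repressor of neuronal genes, in 2. The 12 protocadherins outside the clusters had a median of 0 and CTCF at 2 genes, of which PCDH1, a flanking gene of the gamma cluster, had 208 CTCF tags. The counts of these lists are descriptions.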

How the data were processed

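ChIP-exo peak pairs of 11 libraries were analysed. The authors called them per library, and the deposited signal of each pair, of unstated scaling, was divided by its smallest step to give tags. The submitters' processing notes name bcl2fastq and hg19, the study names ChExMix, and each line of the lists carries the tag of a peak-pairing program; for the aligner, the name is not given in the sources read. Authors' lists merged over replicates were not used here.

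Midpoints of the listed pairs were set against GENCODE release 44 lifted to GRCh37, which has the coordinates of hg19. Each protein-coding gene had 1 TSS, its 5′ end. PCDHA6 and PCDHA7 carry models of an older release there. Windows of 100 bp around midpoints overlapped when sharing at least 1 bp, and 0.5 was added to the cluster's count before the log2 density ratio. Equal list length means the 24728 strongest pairs of each list. Libraries were compared by exact permutation and sign-flip tests, two-sided, adjusted by Benjamini-Hochberg over 8 tests. Groups came from the titles. Alternatives were the list length, a minimum of 9 tags, distances of 500 bp and 5 kb, every transcript start, bounds widened by 50 kb, chromosome 5 as the reference, midpoints at most 250 bp apart, left-out libraries and a replicate block. PECAM1 had no match in the annotation. The steps were tested on simulated data.

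The members and lists were chosen with earlier results of these data known. Named were all C-type genes, the 5 members with the most CTCF tags and every member without CTCF in each cluster, and every member listed in at least 2 control or both knockdown libraries of an antibody. PCDHB3, PCDHB6, PCDHB8, PCDHB13, PCDHB15, PCDHA7, PCDHA9, PCDHA13, PCDHGB4, PCDHGB5 and the cluster's own 8-letter strings were added after their values were seen. Replicate numbers were not used to pair the libraries in the main tests. Correlations of same-numbered libraries' deviations over 20090 genes ran from -0.137 to 0.19. Differently numbered libraries were not compared, so whether the numbers mark a shared batch was not tested. Computation used scipy 1.17.1 with numpy 2.4.6 and pandas 2.3.3 under Python 3.11.15, and plots were drawn with matplotlib 3.10.9.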

Additional observations from a re-analysis of the deposited data

How the results depend on the processing

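Of 124 alternatives, 95 kept the direction and the side of the threshold, or a count within 1.5 times. The knockdown comparisons cannot pass 0.05 with these libraries (smallest p 0.1 in the exact permutation test), so their alternatives could change only in direction. Differences of the member share reversed among the 24728 strongest pairs of each list (knockdown pSTAT3 0.288 points, pSTAT3 against BCL9 2.58) and at 5 kb (knockdown BCL9 9.06, pSTAT3 against BCL9 3.65). The knockdown change of the log2 density reversed among the strongest pairs (pSTAT3 0.31, BCL9 0.0201) and, for BCL9, without the control libraries taken as single-run by their names (0.0311). The antibody difference in density was no longer past 0.05 without those libraries (-0.64) or with the replicate block (-0.72, exact permutation p = 0.0625, the smallest that 5 pairs allow). The block changed no direction, and it could bring no other comparison past 0.05, since its smallest p lies above that. Density against the genome missed the threshold among the strongest pairs (0.32) and with a minimum of 9 tags (0.56). So did the CTCF excess, at 3.86, at 3.77 and, without the libraries taken as single-run, at 7.16 points. Scaled to the density of CTCF windows, an alternative chosen after seeing the data, that excess reversed to a difference of ratios of -1.12. This value counts unsequenced bases among the positions elsewhere, which makes it too low, and no conclusion is drawn from it. The causes were not tested.

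Members with CTCF numbered 7 among the strongest pairs (all genes 4.08%) and 27 with at least 9 tags (16.9%), against 43 (40.9%). Members in at least 2 control libraries, 3 in all (23.2% of all genes), numbered 0 among the strongest pairs (4.53%), 0 with at least 9 tags (4.51%), 1 at 500 bp (16.2%) and 18 at 5 kb (45.6%); with 1 of 3 libraries they numbered 22 (57.1%) and with 3 of 3 they numbered 1 (7.40%). The core was found in 21.4% of the strongest CTCF windows in the cluster. Leaving out 1 library moved the knockdown change of the share from -16.9 (without knockdown replicate 2) to 0.186 points (without knockdown replicate 1) for pSTAT3 and from -13.2 (without knockdown replicate 1) to 3.66 (without knockdown replicate 2) for BCL9, and the antibody difference from -8.38 to -2.17. For the log2 density the ranges were -0.46 to -0.25 for pSTAT3, -0.35 to 0.14 for BCL9, where leaving out control replicate 1 (0.0311), control replicate 2 (0.0107) or knockdown replicate 2 (0.14) turned the direction, -0.84 to -0.64 between antibodies and 0.59 to 0.74 against the genome. The CTCF excess ranged from 7.33 to 10.4 points, and the last 3 stayed past 0.05. Depth is unknown, and the control BCL9 values rest on lists of 24728 to 148755 pairs.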
